A study of Mus musculus with 14 samples.

Results

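RNA levels were measured for 9 genes whose proteins make, bind or regulate microtubules in neurons, namely Mapt, Map1a, Map1b, Map2, Dcx, Tubb3, Dpysl2, Stmn1 and Stmn2, in the embryonic hippocampus of 2 mouse models of Down syndrome. Several of their proteins are known substrates of the kinase DYRK1A. The members were listed by name, and each was found in the gene table as the locus whose isoforms sum to its value in all 14 libraries and whose transcripts match a known transcript of that symbol. All 9 were found among 59796 loci, of which 17432 carry a symbol, and their isoforms fill 36 of 105788 rows of the isoform table.

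The 189N3 model carries a bacterial artificial chromosome with the whole mouse Dyrk1a gene and its flanks, and was sampled in 3 libraries next to 3 of wild-type littermates. The Dp(16)1Yey/+ model carries a duplication of the part of mouse chromosome 16 that corresponds to human chromosome 21 (Dp(16Lipi-Zfp295)1Yey), Dyrk1a included, and was sampled in 4 libraries next to 4 of wild-type littermates. Hippocampi came from genotyped embryos between embryonic days 16 and 18, and stranded RNA libraries were sequenced in pairs of 100-base reads. Neither model is restricted to neurons, and the exact day of each embryo is not given in the labels. The study's methods give as many embryos per genotype as there are libraries, but the labels tie no library to an embryo, so the p-values below measure the spread between these libraries.

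Microtubules are hollow polymers of alpha and beta tubulin that fill axons and dendrites and carry transport by kinesin and dynein. In growing neurons, structural proteins such as tau, the MAP1 and MAP2 proteins and doublecortin bind along the polymer and stabilize or bundle it, whereas stathmins bind free tubulin and favour disassembly. DYRK1A phosphorylates tau and MAP1B among others, and excess DYRK1A activity on tau has been studied in Down syndrome. RNA levels do not show phosphorylation.

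The members lie on 9 different chromosomes and none lies on chromosome 16 (mm10 coordinates from GENCODE vM21, each spanning exons and introns of the whole gene). Mapt, which encodes tau, spans chr11:104231390-104332090 on the plus strand. Map1a spans chr2:121289600-121310832 (plus), Map1b chr13:99421446-99516540 (minus) and Map2 chr1:66175273-66442583 (plus). Dcx spans chrX:143855842-143933311 (minus) and Tubb3 chr8:123411424-123422015 (plus). Dpysl2 spans chr14:66802864-66868688 (minus), Stmn1 chr4:134468320-134473843 (plus) and Stmn2 chr3:8509360-8561606 (plus).

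Promoter sequences were at hand in RefSeq (GRCm38.p6) for 5 of the 9 members, and 2 are shown because, of those 5, Map1a varied most like Mapt across libraries and Dcx least. Each is the 250 bases before a start annotated in RefSeq, 5′ to 3′ on the gene's strand. These starts differ from the GENCODE spans above, and both windows reach into those spans, the Dcx window further. Dcx had 2 such windows, of which 1 is shown. Capitals mark GGGCGG, the GC box, on either strand. They also mark CCAAT on either strand. The only other motif in capitals is TATAAA, again on either strand. The windows are chr2:121289352-121289601 for Map1a and chrX:143933220-143933469 for Dcx.
Map1a: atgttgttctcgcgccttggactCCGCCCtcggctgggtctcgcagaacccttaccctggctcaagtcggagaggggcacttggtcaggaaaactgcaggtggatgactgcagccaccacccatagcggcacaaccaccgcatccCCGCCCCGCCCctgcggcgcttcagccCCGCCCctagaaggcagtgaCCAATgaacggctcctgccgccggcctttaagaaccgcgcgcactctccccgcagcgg
Dcx: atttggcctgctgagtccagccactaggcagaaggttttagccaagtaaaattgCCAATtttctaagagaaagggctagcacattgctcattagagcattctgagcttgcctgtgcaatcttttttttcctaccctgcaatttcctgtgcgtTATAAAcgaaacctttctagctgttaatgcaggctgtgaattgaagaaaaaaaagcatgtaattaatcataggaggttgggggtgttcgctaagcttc
The Map1a window was 66% G or C, with 4 matches of GGGCGG, 2 of which overlap each other, 1 of CCAAT and 0 of TATAAA. The Dcx window was 41.6% G or C, with 1 match of TATAAA, 1 of CCAAT and 0 of GGGCGG. The letters GGGCGG were present in 4 of the 5 member windows and in 32.7% of 32851 promoter windows of the same length. TATAAA was present in 2 of 5 against 12.4% of all windows, and CCAAT in 3 of 5 against 33.8%. A motif not marked above, CANNTG with any base at N, went the other way, in 2 of 5 against 66.2%. With 5 windows these differences were not tested. The median window was 52.4% G or C.

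Levels are given as scaled fragments, the number of sequenced fragments of a locus divided by 1 size factor per library. Libraries held between 20809135 and 29098454 fragments on loci, and 1 fragment was worth 0.816 to 1.21 units, so that counting error is small beside the spread between libraries for every member. Replicates 0 and 1 of the Dp(16)1Yey/+ littermates differed by a median of 1.64 times counting noise and replicates 2 and 3 by 2.05 times, whereas libraries across these pairs differed by 32.6 to 36.8 times. The 4 littermate libraries may hold less than 4 independent samples, and tests with each pair averaged are given where they matter.

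Dyrk1a, the gene added in 189N3, stood at 4248, 3938 and 5877 scaled fragments in the 189N3 libraries and at 2448, 2977 and 2126 in their littermates. All 3 transgenic libraries were above all littermates, with a log2 fold change of 0.89 ± 0.24 (SE). The Dp(16)1Yey/+ libraries held 4781, 2124, 3600 and 3044 of it against 2488, 2397, 3171 and 3175 in the littermates. There the groups overlapped, replicate 1 of the model lay below every littermate, and the log2 fold change was 0.22 ± 0.23, from 0.04 without replicate 0 of the model to 0.43 without replicate 1. The adjusted p of limma was 1.00 in 189N3 and 0.909 in Dp(16)1Yey/+.

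In the 189N3 hippocampus all 9 members had a higher mean on the log2 scale than in littermates, by 0.05 to 0.56 with a median of 0.29, where the median over all 35899 loci tested was -0.04 and 43.8% of loci lay above 0. None of these differences passed the test. In limma no member had an adjusted p under 0.05 (0% of all loci did), and no member had an unadjusted p under 0.05, which 1.87% of loci did. In the Dp(16)1Yey/+ hippocampus 7 of the 9 members had a lower mean, with a range from -0.61 to 0.06 and a median of -0.23, where the median over 36024 loci was 0.03 and 45.1% lay below 0. Again no member had an adjusted p under 0.05 (0% of loci did) or an unadjusted p under 0.05 (3.53% of loci). With edgeR and DESeq2 on the recovered fragments, the smallest adjusted p of a member was 1.00 and 1.00 in 189N3 and 0.942 and 0.997 in Dp(16)1Yey/+. The members moved together from library to library, as described below, so their shared direction is not 9 separate observations. In bulk tissue, fewer cells of a type and less RNA per cell cannot be told apart.

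**Figure D1:**
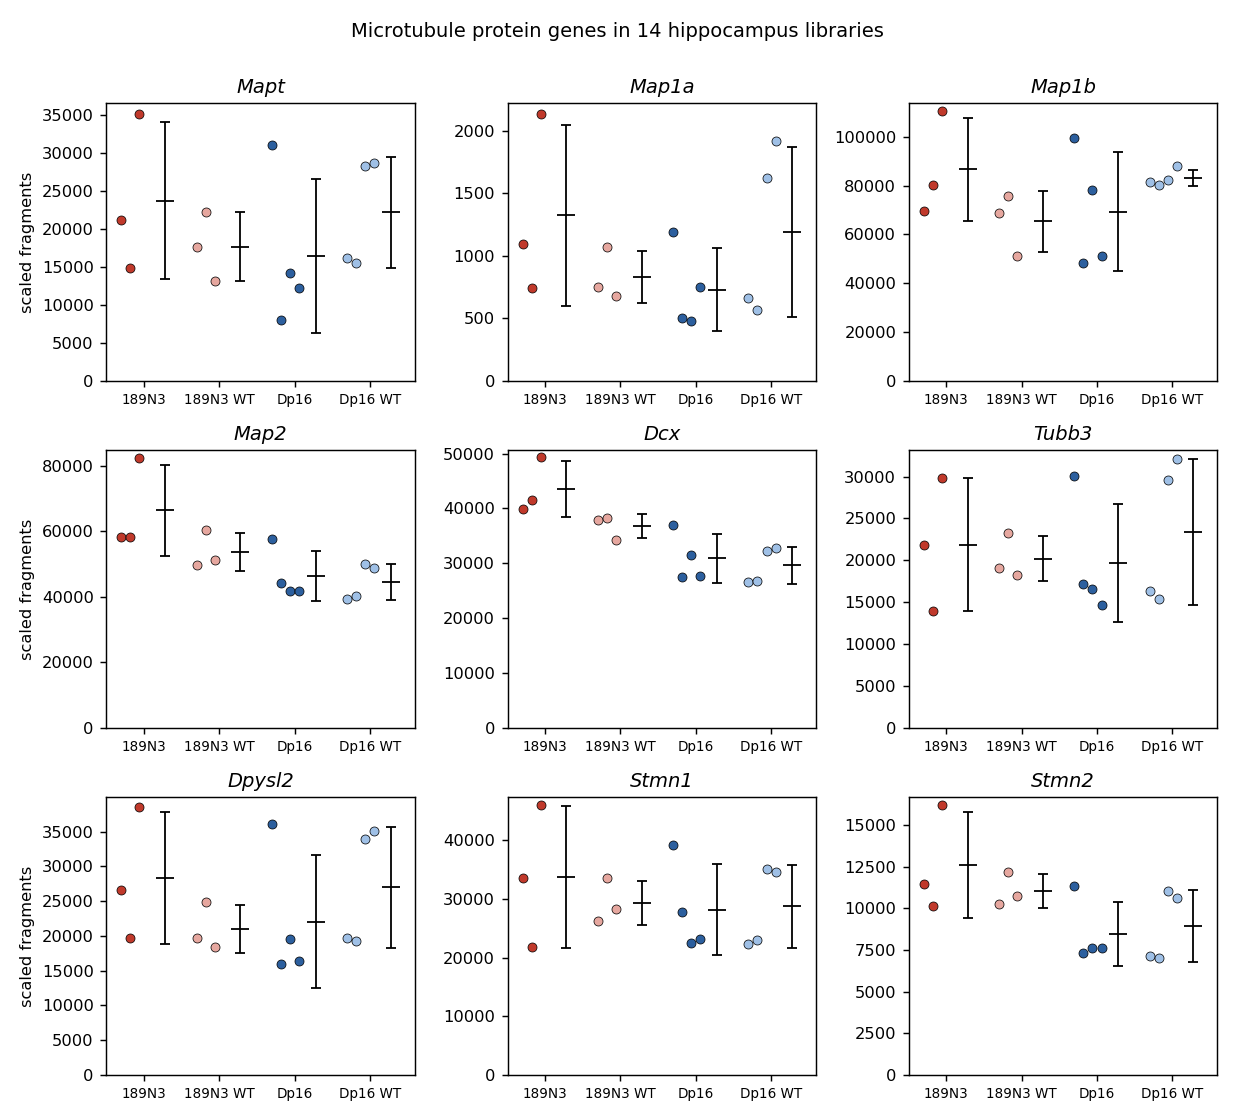
Scaled fragments of the 9 members in each library, by group, in order of replicate number, with the group mean and SD as a bar beside the points. The third 189N3 library is the highest of all 14 for 8 of 9 members, and the groups of each model overlap for all members except Dcx in 189N3.

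Tubb3 encodes the neuronal beta tubulin that is incorporated into axonal microtubules. It stood at 21840, 13921 and 29792 scaled fragments in 189N3 and at 19112, 23314 and 18195 in the littermates. The 189N3 libraries held both the highest and the lowest value of these 6, and the log2 fold change was 0.05 ± 0.27, which became -0.20 without 189N3 replicate 2. Tubb3 stood in Dp(16)1Yey/+ at 30072, 17154, 16634 and 14684 against 16371, 15384, 29647 and 32149. Replicate 0 of the model and replicates 2 and 3 of the littermates were high, and the others lay between 14684 and 17154. The log2 fold change was -0.23 ± 0.29, and it ranged from -0.46 without replicate 0 of the model to -0.05 without littermate 3.

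Mapt encodes tau, an axonal microtubule-binding protein. It stood at 21243, 14844 and 35129 scaled fragments in 189N3 and at 17671, 22266 and 13111 in the littermates. The groups overlapped, replicate 2 of 189N3 was the highest, and the log2 fold change of 0.37 ± 0.30 fell to 0.04 without that library. The Dp(16)1Yey/+ libraries had Mapt at 31124, 7987, 14237 and 12264 against 16212, 15476, 28377 and 28724. Replicate 0 of the model exceeded every littermate while the other 3 lay below every littermate. The log2 fold change was -0.56 ± 0.37 (exact permutation p = 0.229), and it ranged from -0.93 without Dp(16)1Yey/+ replicate 0 to -0.27 without replicate 1. The highest Mapt value was 4.40 times the lowest over the 14 libraries.

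Map1a, the large microtubule-associated protein of mature dendrites, was the least abundant member. It stood at 1096, 742 and 2131 scaled fragments in 189N3 and at 752, 1067 and 675 in the littermates. The library that was highest for Mapt was again highest, and the log2 fold change was 0.56 ± 0.33, or 0.15 without it. Against the duplication's littermates, Map1a stood at 1187, 501, 475 and 750 in Dp(16)1Yey/+ against 660, 562, 1619 and 1920. Replicates 2 and 3 of the littermates were above all 4 libraries of the model, the other littermates were not, and the log2 fold change was -0.61 ± 0.42, from -0.91 without littermate 1 to -0.32 without littermate 3.

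Map1b, the related protein that is abundant early in axon growth, was the member with the highest scaled fragments. It stood at 69630, 80099 and 110445 in 189N3 and at 68928, 75820 and 51305 in the littermates. The 3 highest-ranked values included 1 littermate, and the log2 fold change was 0.40 ± 0.24, or 0.21 without 189N3 replicate 2 and 0.24 without littermate 2. Values of 99554, 48286, 78306 and 51180 in Dp(16)1Yey/+ compared with 81621, 80294, 82486 and 88009. The littermates spanned a narrow range that 3 of 4 libraries of the model fell below, and replicate 0 lay above it. The log2 fold change was -0.33 ± 0.22, and it ranged from -0.52 without replicate 0 of the model to -0.17 without replicate 1.

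Map2, a dendritic microtubule-associated protein, stood at 58297, 58377 and 82530 scaled fragments in 189N3 and at 49767, 60340 and 51153 in the littermates. Of the littermates, 1 lay above 2 of the 189N3 libraries, and the log2 fold change was 0.29 ± 0.22, or 0.12 without 189N3 replicate 2. Map2 in Dp(16)1Yey/+ stood at 57755, 44126, 41805 and 41836 against 39379, 40359, 50001 and 48663. Replicate 0 of the model was the highest, and the other 3 fell among the littermates. The log2 fold change was 0.05 ± 0.16 and turned to -0.09 under quantile normalization. An antisense locus overlapping Map2 held a mean of 15255 scaled fragments, 29.5% of the Map2 mean. Antisense loci were also found for Dpysl2 (6.31% and 5.85% of its mean) and Stmn2 (8.39%). Whether the counting used strand is not stated, and without it reads of these loci and of the members cannot be told apart.

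Dcx encodes doublecortin, which stabilizes microtubules in migrating young neurons. It stood at 39856, 41584 and 49423 scaled fragments in 189N3 and at 37882, 38272 and 34283 in the littermates. Dcx was the only member whose 189N3 and littermate libraries did not overlap, which was the case for 4.98% of all loci tested. The gap between the closest libraries was small beside the spread, the log2 fold change was 0.24 ± 0.21 (0.15 without 189N3 replicate 2), and the exact permutation p of 0.10 is the smallest that 3 against 3 libraries allow. Dcx in Dp(16)1Yey/+ stood at 36997, 27517, 31514 and 27700 against 26625, 26779, 32293 and 32750. The groups overlapped, as they did for all 9 members in this model (2.45% of loci did not overlap), and the log2 fold change of 0.06 ± 0.15 turned to -0.09 under quantile normalization.

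Dpysl2 encodes CRMP2, which binds tubulin dimers and promotes axon growth. It stood at 26623, 19729 and 38603 scaled fragments in 189N3 and at 19700, 24929 and 18440 in the littermates. The 2 highest values were from 189N3, the lowest 189N3 value was next to a littermate at 19700, and the log2 fold change was 0.39 ± 0.26, or 0.14 without 189N3 replicate 2. Dpysl2 in Dp(16)1Yey/+ stood at 36156, 15901, 19521 and 16414 against 19726, 19244, 33955 and 35051. Replicate 0 of the model and replicates 2 and 3 of the littermates were again the high libraries. The log2 fold change was -0.32 ± 0.29, and it ranged from -0.59 without replicate 0 of the model to -0.18 without littermate 3.

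Stmn1 encodes stathmin, which sequesters free tubulin. It stood at 33495, 21780 and 46034 scaled fragments in 189N3 and at 26218, 33512 and 28273 in the littermates. As for Tubb3, the 189N3 libraries held both the highest and the lowest of the 6 values, and the log2 fold change of 0.15 ± 0.26 became -0.11 without 189N3 replicate 2. The Dp(16)1Yey/+ libraries had Stmn1 at 39257, 27844, 22436 and 23106 against 22270, 22950, 35173 and 34642. The groups overlapped throughout, and the log2 fold change was -0.03 ± 0.22.

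Stmn2, the neuron-specific stathmin of growth cones, stood at 11452, 10125 and 16190 scaled fragments in 189N3 and at 10255, 12207 and 10723 in the littermates. The lowest of the 6 values was from 189N3, and the log2 fold change of 0.16 ± 0.23 became -0.03 without 189N3 replicate 2. Stmn2 in Dp(16)1Yey/+ stood at 11361, 7321, 7630 and 7640 against 7126, 7028, 11046 and 10600. Replicate 0 was the highest of the 8 libraries, the other 3 of the model were low, and the log2 fold change was -0.07 ± 0.21. Thus in each member of the Dp(16)1Yey/+ comparison replicate 0 of the model was the highest or among the 3 highest libraries.

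**Figure D2:**
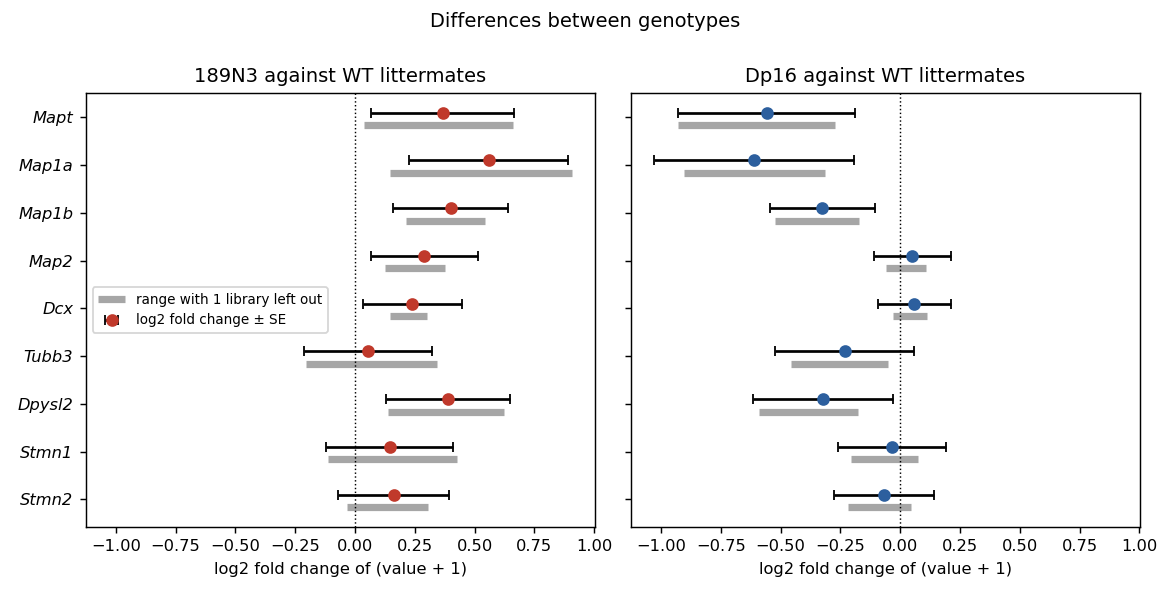
Log2 fold change of (value + 1) of each member in 189N3 (left) and Dp(16)1Yey/+ (Dp16, right) against wild-type littermates, with SE bars of limma and, in grey, the range when each library is left out in turn. In 189N3 all 9 points lie above 0 and the ranges of Tubb3, Stmn1 and Stmn2 cross it; in Dp(16)1Yey/+ 7 points lie below 0.

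Per kilobase of the longest protein-coding transcript, Stmn1 was the most abundant member, with a mean of 28099 scaled fragments per kilobase over the 14 libraries. It was followed by Tubb3 at 11405 and Map2 at 8268 per kilobase, and then by Map1b at 6448, Dpysl2 at 5436 and Stmn2 at 4848. Dcx and Mapt were close, at 3806 and 3789 per kilobase, and Map1a was far lower, at 85.4. Between the 4 groups, 189N3 had the highest mean of 8 members, and the littermates of Dp(16)1Yey/+ that of Tubb3. The libraries of neighbouring groups in this order overlapped for every member except Dcx, whose 189N3 libraries lay above all those of the next group. Levels between the 2 models' lines may also differ by litter or handling, which the labels do not give.

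The difference between the models' genotype effects was tested as an interaction in 1 fit of all 14 libraries. All 9 members had a lower log2 fold change in Dp(16)1Yey/+ than in 189N3, by 0.18 to 1.17 with a median difference of -0.29, where the median over 36045 loci was 0.08 and 42.8% of loci lay below 0. The differences were largest for Map1a (-1.17 ± 0.63), Mapt (-0.93 ± 0.55), Map1b (-0.73 ± 0.34) and Dpysl2 (-0.71 ± 0.43). Map1b alone had an unadjusted p under 0.05 (2.66% of loci did), and no member passed after adjustment (0% of loci did). The adjusted p of limma ranged from 0.922 to 0.934 over the members, and the smallest with edgeR and DESeq2 was 0.961 and 0.995.

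Mapt had 6 isoform rows, and transcript uc007lwi.2 took most of its signal. This isoform accounted for 84.3%, 75.8% and 82.2% of the Mapt isoform sum in 189N3 and for 81.1%, 79.8% and 77.9% in the littermates. Its share was 88.6%, 81.2%, 80.6% and 85.9% in Dp(16)1Yey/+ against 84.5%, 87.8%, 83.6% and 87.2%. The groups overlapped in both models, with means of 80.8 ± 4.4 (SD, n = 3) against 79.6 ± 1.6 (n = 3) and of 84.1 ± 3.8 (n = 4) against 85.8 ± 2.1 (n = 4) percent. Isoform uc007lwf.2 was next, with 7.62% to 17.8% over the 14 libraries. Its share was 13.5 ± 3.67% in 189N3 against 14.98 ± 2.49%, and 11.6 ± 3.49% in Dp(16)1Yey/+ against 9.55 ± 1.47%, and the groups overlapped again. Of the other 4 Mapt isoforms, uc007lwh.2 took 2.58% to 6.13% and the rest averaged under 1% each. Which of these transcripts include the alternative exons of the tau repeat and amino-terminal regions was not analysed here, so no ratio of tau forms is given.

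Map1a was the member whose isoform shares differed between genotypes in opposite directions in the 2 models. Isoform uc008lyi.2 accounted for 26.0%, 31.2% and 28.4% of the Map1a sum in 189N3 and for 53.3%, 41.8% and 34.7% in the littermates. All 3 transgenic libraries lay below all littermates, a difference of -14.7 percentage points (exact permutation p = 0.10, the smallest possible). The same isoform accounted in Dp(16)1Yey/+ for 42.3%, 41.0%, 41.1% and 34.4% against 25.7%, 32.4%, 31.7% and 31.2%. All 4 transgenic libraries lay above all littermates, a difference of 9.47 points (exact permutation p = 0.0286, or 0.0667 with the nearly alike littermate pairs averaged, the smallest possible in each case). The other main isoform, uc008lyj.2, moved the opposite way by 15.8 and -9.59 points, as complementary shares must.

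The difference between the models was 24.2 points for uc008lyi.2 (exact permutation p = 0.00143 over 1400 rearrangements within models, and 0.00333 with the littermate pairs averaged, the smallest possible in each case). Over the 15586 isoform shares of named loci with the same minimum share and a locus mean of at least 500, 13 reached this smallest p and the adjusted p was 1.00. With so few rearrangements a share could pass that adjustment only if many more shares reached this smallest p. None passed, and 624 of the 15586 (4%) had an exact permutation p under 0.05 for the difference between the models. A share that separated the genotypes in both models in opposite directions was found for 13 of these 15586 (0.0834%). These include both Map1a isoforms, which are complementary and not separate observations. Taken singly, 8.39% of the shares separated the genotypes in 189N3 and 2.04% in Dp(16)1Yey/+, so some would do so in both by chance. Whether the count of 13 exceeds that was not tested. Map1a rests on 475 to 2131 scaled fragments a library, and the split between isoforms is an estimate of the Cufflinks suite whose error is not in the table. The nearly alike littermates 0 and 1 of Dp(16)1Yey/+ had uc008lyi.2 shares of 25.7% and 32.4%, the lowest and highest of their group. The other nearly alike pair, littermates 2 and 3, had 31.7% and 31.2%. As levels, uc008lyj.2 had a log2 fold change of 0.93 ± 0.43 in 189N3 and -0.83 ± 0.47 in Dp(16)1Yey/+, and uc008lyi.2 of -0.02 ± 0.44 and -0.22 ± 0.51. The fold changes of uc008lyj.2 were larger in size in both models, a difference that was not tested as levels.

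**Figure D3:**
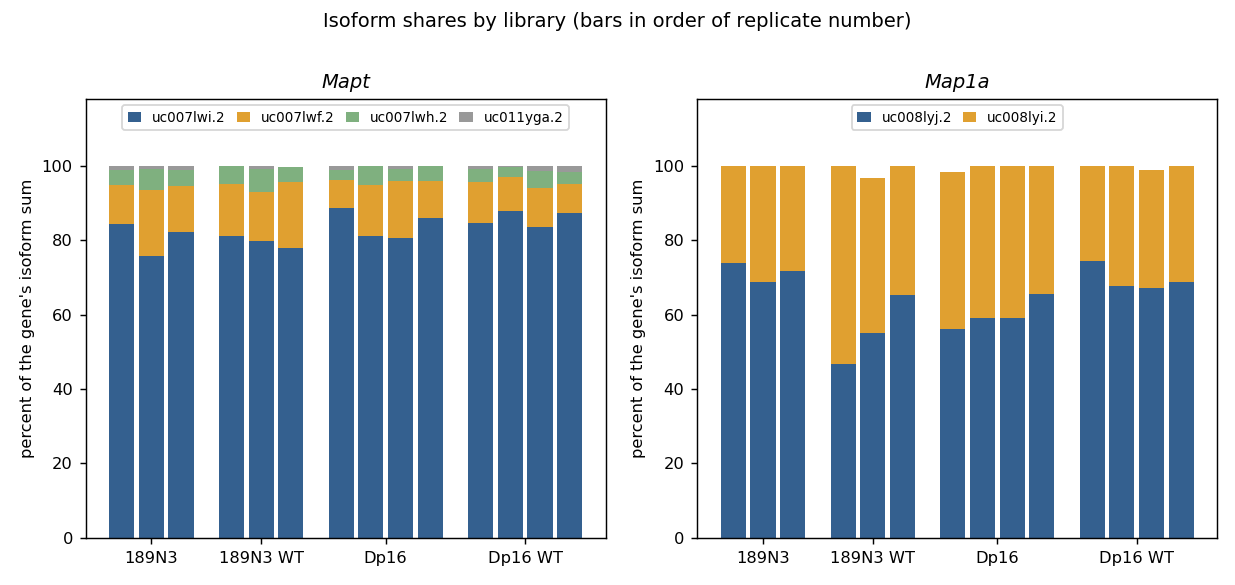
Percent of the isoform sum of Mapt (left) and Map1a (right) taken by each isoform with a mean share of at least 0.5%, 1 bar per library in order of replicate number within each group. For Mapt the main isoform takes 75.8% to 88.6% in every library; for Map1a uc008lyi.2 is lower in all 189N3 than in all littermate libraries and higher in all Dp(16)1Yey/+ (Dp16) than in all littermate libraries.

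Of the 15 member isoforms with a mean share of at least 5% in genes with more than 1 isoform, 3 had shares that did not overlap between genotypes in 189N3 (8.39% of all such shares did not) and 2 in Dp(16)1Yey/+ (2.04%). The third in 189N3 was Dcx uc009umm.1, at 19.1 ± 0.63% (SD, n = 3) against 16.8 ± 1.2% (n = 3), a difference of 2.31 points. As levels, no member isoform had an adjusted p under 0.05 in limma, against 22 of 60141 isoforms in 189N3 (0.0366%) and 13 of 60652 in Dp(16)1Yey/+ (0.0214%). Dcx uc009umm.1 in 189N3 was the 1 member isoform with an unadjusted p under 0.05, with a log2 fold change of 0.43 ± 0.17 (2.56% of isoforms had such a p). The Map2 rows were the most divided, with the isoform that matches uc007bhz.1 at 35.6% to 46.5%, and a variant of it (TCONS_00000940) ranged from 0.0042% to 18.4% across libraries, which overlapped between genotypes. Map1b, Dpysl2 and Stmn2 had a dominant isoform at over 92% of the sum in every library.

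The 8 other members varied with Mapt across libraries. Pearson's r with Mapt on the log2 scale ran from 0.586 for Dcx to 0.958 for Dpysl2 over the 14 libraries, with permutation p from 1e-05, the smallest 100000 rearrangements can give, to 0.0277 over 8 relations. Spearman's rho ran from 0.495 to 0.956 (permutation p from 1e-05 to 0.0747). Without the 2 libraries farthest from the Mapt median, 189N3 replicate 2 and Dp(16)1Yey/+ replicate 1, r ran from 0.322 for Dcx to 0.979 for Dpysl2, and the relations of Dcx and Map2 no longer held (r = 0.322 and 0.483, permutation p = 0.304 and 0.113). Within the 189N3 line r ran from 0.814 to 0.975 (exact permutation p from 0.00278 to 0.0611) and within the Dp(16)1Yey/+ line from 0.711 to 0.959 (permutation p from 2.48e-05 to 0.0511). For deviations from the group means, which leave genotype out, it ran from 0.806 to 0.963 (permutation p from 1e-05 to 0.0007). Such deviations sum to 0 within each group and are not independent, so their p-values, here and below, may be too small. With the nearly alike littermate pairs averaged, r ran from 0.657 to 0.957 over 12 values (permutation p from 1e-05 to 0.0218), and for deviations from the group means from 0.784 to 0.962 (permutation p from 1e-05 to 0.00268). Within the Dp(16)1Yey/+ line it then ran from 0.697 to 0.959 over 6 values (exact permutation p from 0.00278 to 0.135), and Map2, Dcx and Stmn1 had a p above 0.05. Over the 14 libraries, a correlation with Mapt as high as the lowest of the members was common, and one as high as the highest was rare. Of 11226 named loci, 36.3% had an r of at least 0.586, 14.6% one of at least 0.803 and 0.748% one of at least 0.958.

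The 5 named loci most like Mapt, among 11226 with a mean of at least 100, were BC029722, Rab6b, Neurl1b, Tub and Mmp24, with r from 0.984 to 0.991 over 14 libraries. Rab6b encodes a neuronal Rab GTPase of vesicle transport. Chosen for this likeness, they also had log2 fold changes in the direction of Mapt in each model, from 0.22 to 0.52 in 189N3 and from -0.54 to -0.39 in Dp(16)1Yey/+, with an adjusted p of limma of 1.00 and 0.909.

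**Figure D4:**
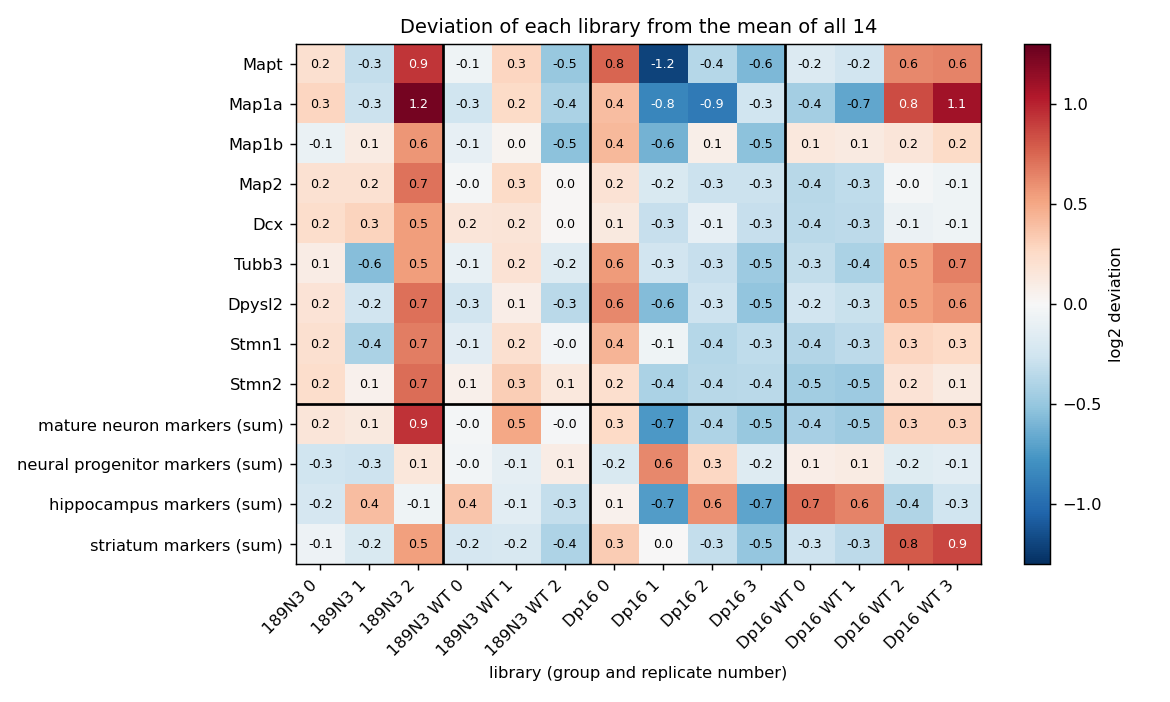
Log2 deviation of each library from the mean of all 14, for the 9 members (upper rows) and for the summed levels of marker lists of 4 cell types or regions (lower rows); colour and printed number give the deviation, and vertical lines part the groups. 189N3 replicate 2, 189N3 littermate 1 and Dp(16)1Yey/+ (Dp16) replicate 0 are above the mean for all 9 members and Dp(16)1Yey/+ replicates 1 and 3 below it for all 9, and the mature neuron markers run the same way in these libraries.

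Marker lists of neurons, other cell types and brain regions were read beside the members, and some ran with them, some against them and others near 0. The 10 mature neuron markers, all tested and none listed at 0 in any library, summed to 13641 to 23966 in 189N3 and 12280 to 17743 in its littermates, and 9 of the 10 had a log2 fold change above 0. They summed to 7473 to 15001 in Dp(16)1Yey/+ and 9111 to 15411 in its littermates, and 9 of 10 lay below 0. The highest sum was in 189N3 replicate 2 and the lowest in Dp(16)1Yey/+ replicate 1, the libraries with the highest and lowest Mapt. That 189N3 library also had the highest sums of the immature neuron, interneuron, oligodendrocyte lineage, microglia and endothelial lists. It did not have the highest of the neural progenitor, hippocampal, striatal, erythroid, choroid plexus or connective tissue lists. In Dp(16)1Yey/+ replicate 1 Top2a, a marker of dividing cells, stood at 20909 against 5395 to 9920 in the other 13. The 9 neural progenitor markers summed to 41331 to 55414 in 189N3 against 46012 to 53318, with 7 of 9 below 0. They summed to 43423 to 76939 in Dp(16)1Yey/+ against 44940 to 53800, with 5 of 9 above 0.

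The hippocampal markers, among them Prox1 and Zbtb20, were present in all libraries. Their 7-gene sum was 12446 and 13110 in Dp(16)1Yey/+ littermates 1 and 0 and 6069 and 6643 in littermates 2 and 3. Over the genotypes, 4 of the 7 had a log2 fold change above 0 in 189N3 (median 0.02) and 6 of 7 below 0 in Dp(16)1Yey/+ (median -0.39). The sum of the 8 striatal markers was split the opposite way among these littermates, at 2029 and 2133 in littermates 1 and 0 and 4474 and 4696 in littermates 2 and 3. Littermates 2 and 3 lay above littermates 0 and 1 for every member, though narrowly for Map1b (82486 and 88009 against 81621 and 80294). By genotype the striatal markers ran with the members, 7 of 8 above 0 in 189N3 (median 0.29) and 7 of 8 below 0 in Dp(16)1Yey/+ (median -0.39). The 5 erythroid markers summed to 13859 to 22137 in 189N3 and 33790 to 54236 in its littermates, without overlap, and all 5 lay below 0 (median -1.35). In Dp(16)1Yey/+ they ran the other way, at 6139 to 48387 against 4559 to 17127, with all 5 above 0 (median 1.25). The connective tissue and skin markers likewise ran against the members, with 7 of 7 tested below 0 in 189N3 (median -1.44, sums of 1173 to 2094 against 1981 to 5648) and 5 of 6 above 0 in Dp(16)1Yey/+ (median 0.95, 457 to 3067 against 463 to 1141). The 5 oligodendrocyte lineage markers all had a log2 fold change above 0 in 189N3 (median 0.55) and below 0 in Dp(16)1Yey/+ (median -0.53). The immature neuron, microglia, choroid plexus, endothelial and interneuron lists had medians from 0.02 to 0.11 in 189N3 and from -0.49 to 0.03 in Dp(16)1Yey/+. No marker of any list passed adjustment. The part of these differences in the members' values was not tested.

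Genes that work with the members were read from 6 lists of tubulins, other microtubule-binding proteins, stathmin and CRMP relatives, motors, tubulin-modifying or severing enzymes, and kinases and phosphatases. Of 108 listed genes 103 were tested, and none had an adjusted p under 0.05 in limma, edgeR or DESeq2 in either model or between them. In 189N3 91 of the 103 lay above 0 (43.8% of all loci did), with a median of 0.19, and 1 of them, Dyrk1a, had an unadjusted p under 0.05 (1.87% of all loci did). In Dp(16)1Yey/+ 80 of the 103 lay below 0 (45.1% of all loci did), with a median of -0.17, and 2 had an unadjusted p under 0.05 (3.53% of all loci did), Tppp3 and Dpysl4. Between the models 88 of the 103 had a lower log2 fold change in Dp(16)1Yey/+, and Map4, Clip1 and Dync1h1 had an unadjusted p under 0.05 (2.66% of all loci did).

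By list, the 13 tubulins were nearest to 0, with medians of 0.08 in 189N3 and -0.11 in Dp(16)1Yey/+. Tuba1a, the main alpha tubulin of young neurons, stood at 161336 ± 48931 scaled fragments (SD, n = 3) against 146599 ± 23004 (n = 3) in 189N3, a log2 fold change of 0.11 ± 0.25. Its log2 fold change was -0.02 ± 0.21 in Dp(16)1Yey/+, and that of Tubb2b was 0.08 ± 0.26 and -0.11 ± 0.21 in the 2 models. The 24 other microtubule-binding proteins had medians of 0.21 and -0.29, with 23 of 24 above 0 in 189N3 and 21 of 24 below 0 in Dp(16)1Yey/+. Dclk1, a kinase of the doublecortin family, had log2 fold changes of 0.28 ± 0.25 and -0.35 ± 0.28, and Ckap5, a plus-end polymerase, of 0.03 ± 0.22 and 0.23 ± 0.16.

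The 6 stathmin and CRMP relatives had medians of 0.26 and -0.39. Crmp1 stood at 11377 ± 3744 against 8050 ± 2340 in 189N3 (log2 fold change 0.49 ± 0.28) and at 9371 ± 5358 against 12804 ± 4835 in Dp(16)1Yey/+ (-0.51 ± 0.35). Its relative Dpysl3 had log2 fold changes of 0.34 ± 0.26 and -0.29 ± 0.25. The 24 kinesin and dynein genes had medians of 0.21 and -0.11. Among them the axonal motor Kif5c had log2 fold changes of 0.25 ± 0.26 and -0.16 ± 0.20, and the dynein heavy chain gene Dync1h1 of 0.32 ± 0.23 and -0.47 ± 0.23. The 16 modifying or severing enzymes had medians of 0.19 and -0.14, with Spast, which severs microtubules, at 0.18 ± 0.25 and -0.01 ± 0.17 and Agtpbp1, which removes glutamates from tubulin, at 0.23 ± 0.23 and -0.05 ± 0.18. The 20 kinases and phosphatases had medians of 0.21 and -0.18, with Mapk8 at 0.01 ± 0.23 and 0.30 ± 0.15 and Ppp2ca at 0.02 ± 0.26 and 0.07 ± 0.18.

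**Figure D5:**
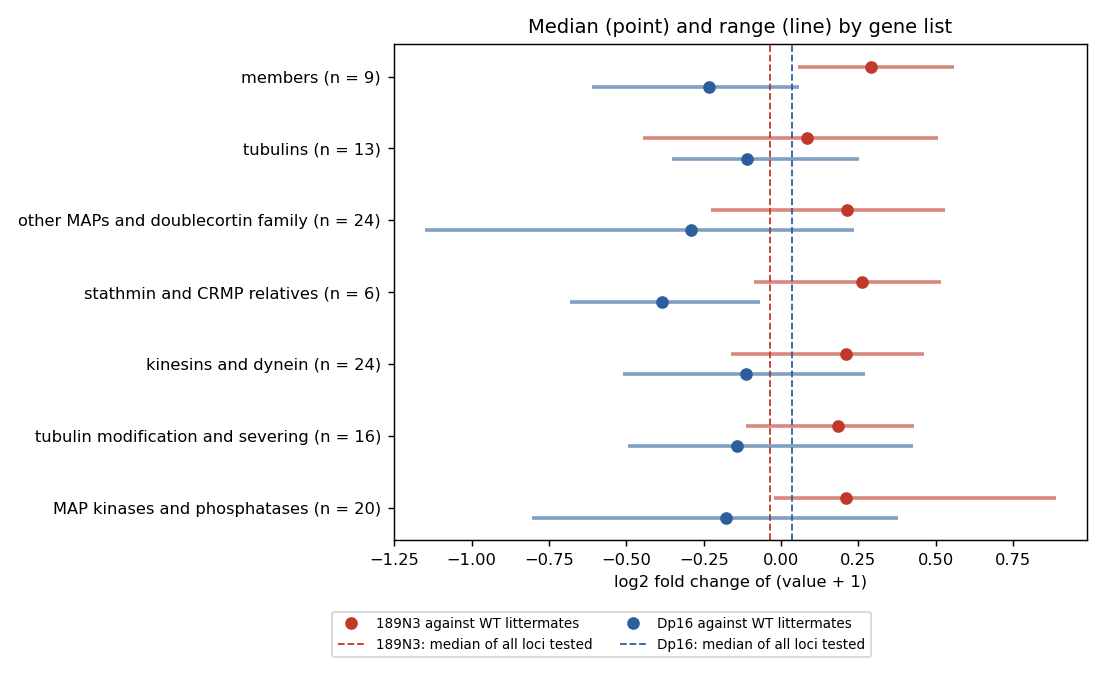
Median (point) and lowest to highest (line) log2 fold change of (value + 1) for the 9 members and 6 lists of related genes in 189N3 and Dp(16)1Yey/+ (Dp16) against wild-type littermates, with the number of genes tested; dashed lines mark the median of all loci tested in each model. All 7 medians lie above 0 in 189N3 and below 0 in Dp(16)1Yey/+, with ranges that reach across 0 in most lists.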

How the data were processed

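Hippocampal RNA of 14 libraries was studied, with groups and replicate numbers from the sample labels. The authors aligned reads with TopHat and Bowtie to mm10 and quantified assembled transcripts with Cufflinks. The deposited gene values are signal, whole fragments per locus over 1 size factor per library (whole within 0.02 of a fragment), and the deposited isoform values are estimates on the same signal scale. Loci were matched to symbols of the deposited map through sums of isoforms: 48964 loci matched and 17477 were named.

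Values were analysed as log2(value + 1) in limma 3.58.1 under R 4.3.3 (trended empirical Bayes prior) for loci with a mean of at least 10, each model against its littermates and as an interaction, with Benjamini-Hochberg adjustment over all loci at 0.05. Fold changes are on that scale. Recovered fragments were tested with edgeR 4.0.16 (quasi-likelihood) and DESeq2 1.42.0. Isoform shares and single values were compared by exact two-sided permutation tests, which cannot go below 0.10 with 3 against 3 libraries or 0.0286 with 4 against 4. Fits were tested on simulated data. Alternatives comprised other pseudocounts, filters, scalings, a replicate block, 1 fit of all groups, and leaving out each library. Members, lists and markers were chosen with earlier results of these data known. Genes named in the text are the members, their isoforms with a mean share of at least 5%, the 2 most abundant genes of each list, Dyrk1a, and the 5 named genes most correlated with Mapt. Top2a, Prox1, Zbtb20, Tppp3, Dpysl4, Map4, Clip1 and Mapt uc007lwh.2 fall outside this rule and were named after their values were seen. Replicate numbers did not pair libraries: same-numbered libraries correlated between -0.45 and -0.03 in their deviations from the group means.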

Additional observations from a re-analysis of the deposited data

Results flagged for a closer look

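Among 50 groups of 4 libraries tested, 5 had a library far from the others, where chance gives about 1 in 20 for a single group. The groups are genes and shares in the same libraries, and the members moved together, so they are not separate tests. In Dp(16)1Yey/+ the gap of replicate 0 to the next library made up 0.854 of the range of the group for Map2, 0.84 for Tubb3 and 0.921 for Stmn2. Replicate 0 was the highest of the 4 for all 3 genes, at 57755, 30072 and 11361 scaled fragments. For the share of Map1a isoform uc008lyi.2, the lowest library stood apart by 0.833 of the range in Dp(16)1Yey/+ (replicate 3, 34.4%) and by 0.832 in its littermates (replicate 0, 25.7%).

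As group means, the genotype difference in the share of Map1a uc008lyi.2 was 24.2 percentage points higher in Dp(16)1Yey/+ than in 189N3. For uc008lyj.2 the difference between the models was -25.4 points. Neither passed adjustment over 15586 shares. Every library lay on the opposite side of its littermates in the 2 models, and the exact permutation p was 0.00143, the smallest that 1400 rearrangements allow. With that limit a share could pass adjustment only if many more shares reached it. Of the 15586 shares 13 reached it, 4% had an exact permutation p under 0.05, and none passed. The 2 shares are complementary and count as 1 observation.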

How the results depend on the processing

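Of 1009 values recomputed under an alternative, for the members, Dyrk1a and the counts of calls, 948 kept their direction and their side of the threshold, or stayed within 1.5 times the count, 28 moved further and 33 changed sign. The number of loci with an adjusted p under 0.05, 0 in each model, was 4 in 189N3 with median-ratio size factors, 15 with DESeq2 and 72 with a replicate block. In Dp(16)1Yey/+ DESeq2 called 8. No member and not Dyrk1a was among these. The replicate block took the isoform calls from 22 to 0 in 189N3 and from 13 to 0 in Dp(16)1Yey/+; the libraries share only a number. Isoform calls in 189N3 were 3 with a pseudocount of 0.1, 14 with 10, 172 with no filter, 0 with a mean of at least 100 and 121 with no trend. They were 45 with no filter, 0 with a mean of at least 100 and 34 with no trend in Dp(16)1Yey/+. The cause was not tested.

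Leaving out each library gave 0 to 28 gene calls in 189N3 (28 without littermate 1, 2 without littermate 0), 0 to 3 in Dp(16)1Yey/+ and 0 to 1 between the models (3 and 1 without Dp(16)1Yey/+ replicate 1). It gave 0 to 12 isoform calls in 189N3 and 4 to 43 in Dp(16)1Yey/+ (43 without replicate 0 and 4 without replicate 1 of the model). The median log2 fold change of the members kept its sign, from 0.12 to 0.43 in 189N3 and from -0.46 to -0.05 in Dp(16)1Yey/+.

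Under quantile normalization Map2 and Dcx turned to -0.0948 and -0.0904 in Dp(16)1Yey/+. With 1 library left out, log2 fold changes in Dp(16)1Yey/+ ran from -0.0588 to 0.109 for Map2, -0.0304 to 0.112 for Dcx, -0.206 to 0.0741 for Stmn1 and -0.217 to 0.0435 for Stmn2. In 189N3 they ran from -0.204 to 0.345 for Tubb3, -0.111 to 0.428 for Stmn1 and -0.0348 to 0.304 for Stmn2, and between the models from -0.462 to 0.0773 for Stmn1. Share differences that changed sign in 189N3 ran from -3.51 to 0.022 points for Mapt uc007lwf.2, -0.564 to 3.67 for uc007lwi.2, -2.91 to 3.38, -3.07 to 1.90 and -0.162 to 4.12 for the Map2 isoforms TCONS_00000940, TCONS_00000941 and TCONS_00000945, -4.73 to 0.871 and -2.99 to 0.073 for Dcx uc033juo.1 and uc009umn.1, and -0.631 to 0.801 for Stmn2 uc008ooo.1. In Dp(16)1Yey/+ they ran from -0.144 to 1.43 for TCONS_00000941 and from -1.77 to 3.11 and -1.21 to 0.764 for Dcx uc033jun.1 and uc009umm.1. The Map1a share differences kept their sign, from -19.0 to -9.69 points in 189N3 and 7.96 to 11.2 in Dp(16)1Yey/+ for uc008lyi.2.

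At the spread between these libraries, differences of the size seen for the members did not pass the threshold. Averaging the nearly alike littermate pairs, chosen for the isoform shares and the correlations after seeing the data, left the Map1a difference between the models at an exact permutation p of 0.00333.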
